A study of Mus musculus with 188 samples.

Results

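The genes described here are 43 mouse genes of the lysosome, the acidic compartment in which a cell takes apart the proteins, sugar chains and lipids that it swallows or recycles. They were found by symbol, as the rows of the count files whose Ensembl identifier maps to 1 of the 43 names, and they are 43 of 25711 identifiers in all. A first group of 16 genes encodes the vacuolar proton pump (V-ATPase), with 6 subunits of its membrane sector V0, 8 of its catalytic sector V1 and 2 accessory proteins. The other 27 genes encode 9 proteases, 7 glycosidases, 7 lysosomal membrane proteins, 3 proteins that handle lipids and the transcription factor Tfeb. All 43 had enough counts to be tested in every comparison.

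The libraries are bulk RNA-seq of organotypic brain slices, cut coronally at 150 µm from C57BL/6J mice of both sexes aged 6 to 8 weeks and kept 2 to an insert, with treatment from day 7 of culture. In batch 1, each of 6 groups had 10 libraries, all taken after 24 h: control, heme bound to albumin (heme-albumin) at 12.5, 50, 200 or 400 µM, and heme bound to hemopexin (hemeHpx) at 200 µM. For the 10 hemeHpx libraries the sample titles name haptoglobin, whereas the treatment tags and library names give hemopexin, which was followed. Batches 2 and 3 were sampled after 24 h and 48 h and held 10 and 9 controls, 10 libraries at each time of free hemoglobin (Hb) at 200 and at 400 µM, 8 and 8 of the hemoglobin-haptoglobin complex (HbHp) at 200 µM, 4 and 5 of HbHp at 400 µM, and 12 and 11 of haptoglobin alone (Hp) at 400 µM. Library names in these batches begin with E1 or E2, which the labels do not explain. Every HbHp library was of E2 and of batch 3, as against 3 of the 10 controls at 24 h and 2 of the 9 at 48 h with E2, so the fit for these batches carried a term for the batch and a term for the prefix. The 21 libraries without a certain group, of 188 in all, entered no comparison.

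The library totals lay between 11038484 and 44199060 counts in batch 1, between 32626873 and 54174784 in batch 2 and between 15587938 and 38839614 in batch 3. Levels are given in CPM, which are counts relative to the scaled size of the library, and in FPKM, which also divide by the length of the gene, where genes are compared with each other. Fold changes come with the standard error (SE) and with padj, the p of edgeR's quasi-likelihood test adjusted over all genes tested. Slices hold neurons, astrocytes, oligodendrocytes, vessels and microglia together. Markers of each were detected in all groups, apart from Siglech, 1 of 11 microglial markers, which was listed at 0 in every library of 3 groups. In bulk tissue, fewer cells of a type and less RNA per cell cannot be told apart.

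V-ATPase spends ATP in its V1 sector to drive protons through its V0 sector, and the acid it makes activates the cathepsins, the glycosidases and the lipase. LAMP1 and LAMP2 coat the inner face of the lysosomal membrane, and MCOLN1 lets calcium out of the lysosome. TFEB moves into the nucleus when lysosomes are stressed or nutrients are short and switches on many of these genes through a short palindrome, CACGTG, in their promoters. In brain, microglia and perivascular macrophages carry much of the lysosomal load. CD163, a receptor of macrophages, binds hemoglobin in complex with haptoglobin, and LRP1, a receptor of several brain cell types including neurons and astrocytes, takes up heme in complex with hemopexin.

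The palindrome was searched in promoter windows of 300 bases, 250 before and 50 from the transcription start, taken from RefSeq on build GRCm38.p6. The motif CACGTG reads the same on both strands. Of the 43 genes, 36 had a window, and 13 of those 36 (36.1%) held CACGTG at least once, against 8.09% of all 27025 genes with a window. The longer forms GTCACGTG, searched on both strands, and TCACGTGA, its own reverse complement, each overlap CACGTG. They were found in 8 (22.2%) and 7 (19.4%) of the 36, against 2.55% and 1.12% of all genes. The 13 holders were Atp6v0b, Atp6v0d1, Atp6v0e, Atp6v1a, Ctsa, Ctsd, Ctsf, Ctsl, Gaa, Gla, Glb1, Lamp1 and Mcoln1, and Lamp1 held 4 copies. Stretches of 30 bases around a match are shown for 6 of them whose levels are followed below or which stand for the pump, written 5′ to 3′ on the gene's strand, with CACGTG, or TCACGTGA where the longer form was met, in capitals.
Ctsd (chr7:142387908-142387937, minus strand): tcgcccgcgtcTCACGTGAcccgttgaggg
Ctsl (chr13:64370739-64370768, minus strand): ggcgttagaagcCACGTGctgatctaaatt
Gaa (chr11:119267811-119267840, plus strand): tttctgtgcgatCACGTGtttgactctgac
Lamp1 (chr8:13159088-13159117, plus strand): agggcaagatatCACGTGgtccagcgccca
Mcoln1 (chr8:3500462-3500491, plus strand): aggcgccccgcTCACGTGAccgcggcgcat
Atp6v0d1 (chr8:105566050-105566079, minus strand): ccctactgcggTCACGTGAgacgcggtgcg

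In the controls of batch 1, mean levels per length spanned from 2802 ± 1099.5 FPKM (SD, n = 10) for Ctsd, the aspartic protease cathepsin D, down to 3.23 ± 1.07 FPKM for Atp6v0d2, a V0 subunit best known from osteoclasts and macrophages. Psap, the precursor of the saposins that present glycolipids to their hydrolases, was the second at 1226 ± 330.0 FPKM and Ctsb was the third at 748 ± 243 FPKM, and the ranges of these neighbours in the order overlapped. Lamp1 stood at 429.8 ± 68.3 FPKM and Cd68, a macrophage lysosomal glycoprotein, at 272 ± 113 FPKM. The highest pump component was the accessory protein Atp6ap1 at 82.01 ± 14.1 FPKM, in the 12th place of 43. Tfeb itself, at 4.89 ± 1.21 FPKM, was the 42nd. The spread between control libraries differed from gene to gene. Ctsd ran from 3088 to 11490.1 CPM (median 5825), while Atp6v1h, the regulatory subunit of V1, ran from 78.7 to 112 CPM (median 84.4).

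**Figure D1:**
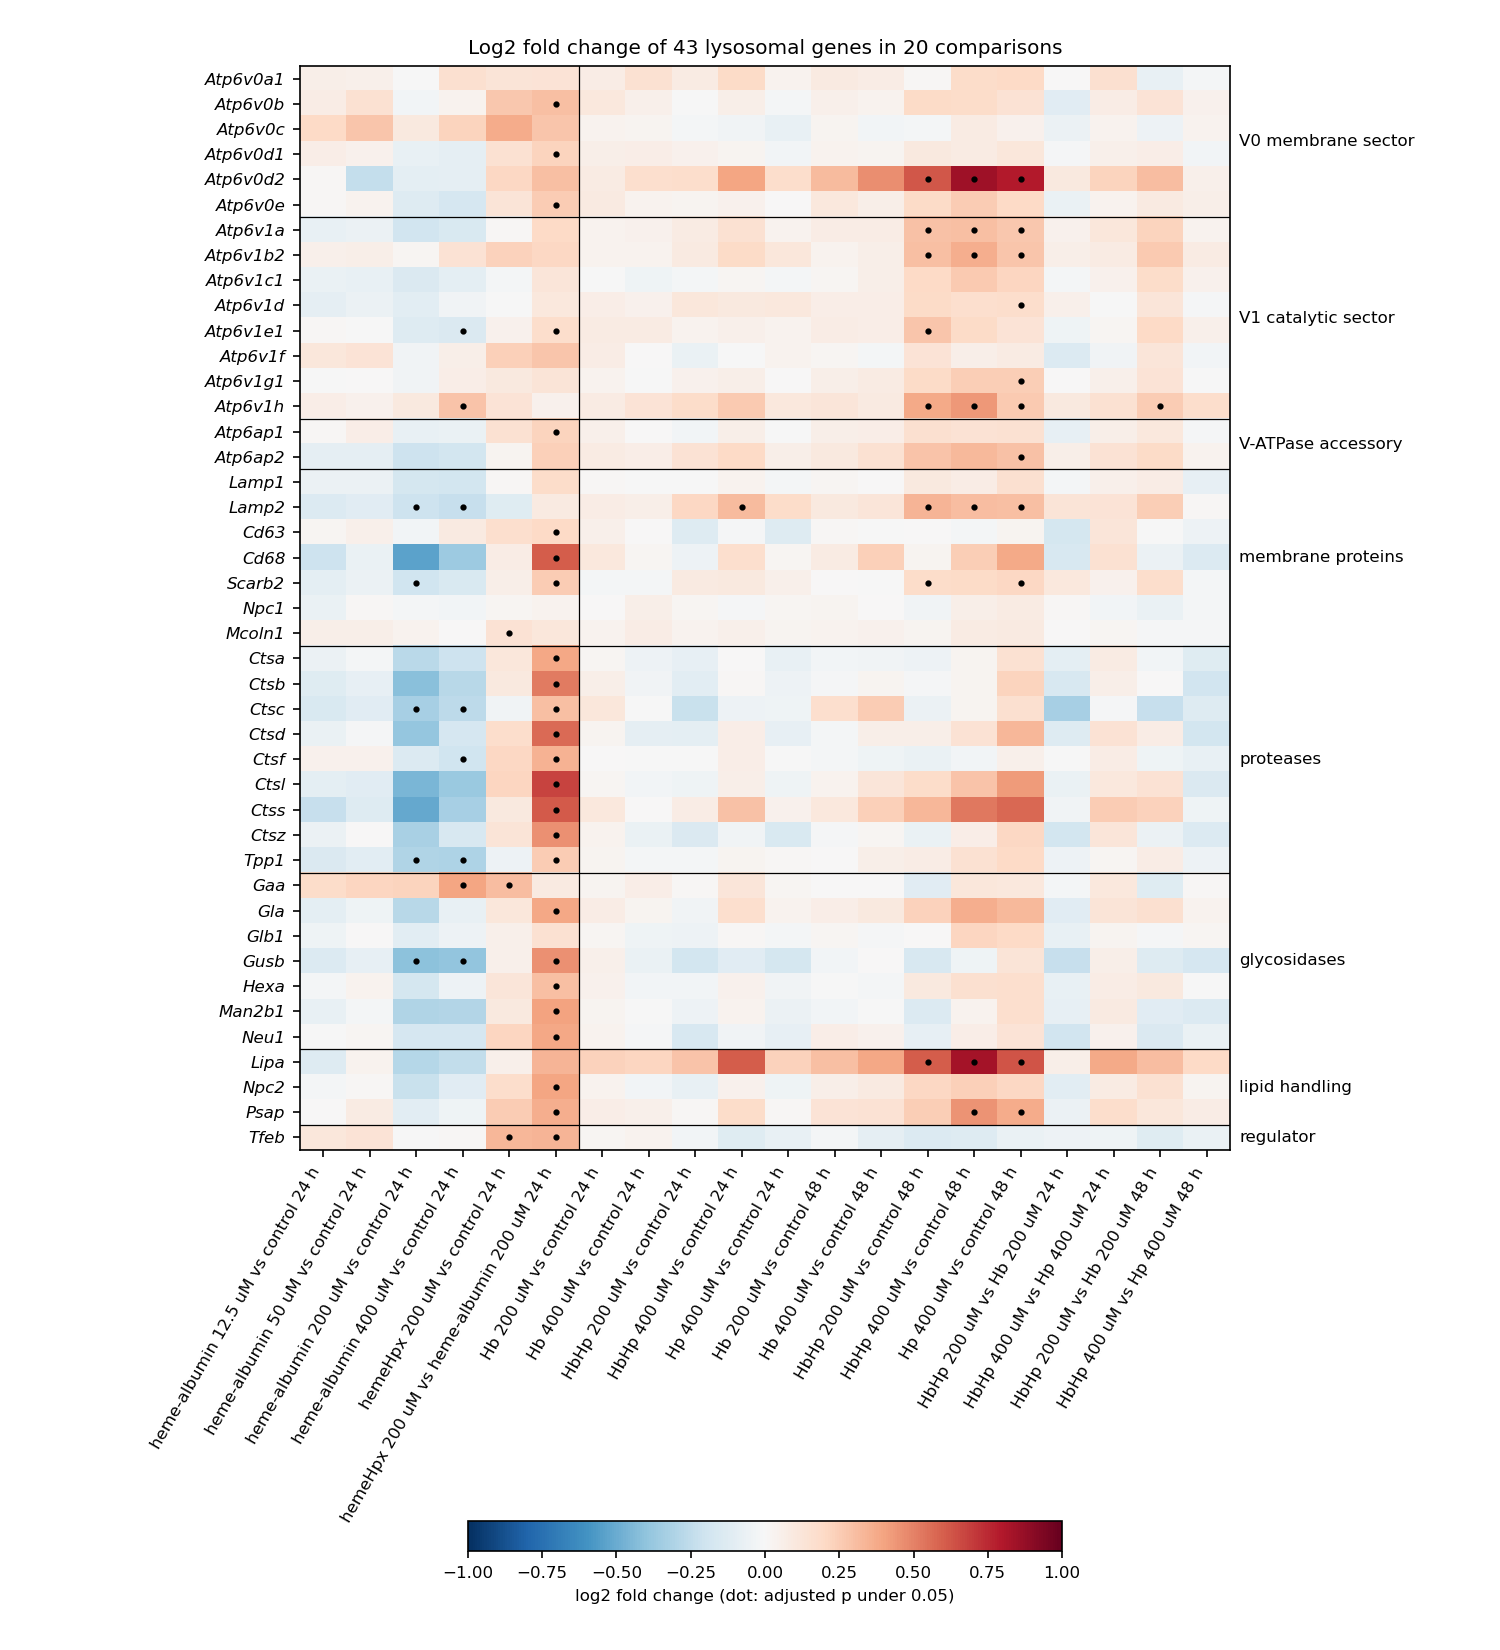
Log2 fold change of each of the 43 genes (rows, in their groups) in 20 comparisons (columns, batch 1 to the left of the vertical line), with blue for lower, red for higher and a dot where the adjusted p was under 0.05. The column of hemeHpx against heme-albumin holds the most dots (25 genes). The 3 columns of HbHp and Hp against control at 48 h hold 8, 7 and 11. Against control, heme-albumin holds 5 at 200 µM and 8 at 400 µM, and hemeHpx holds 3. The 4 columns of Hb against control hold none.

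Heme-albumin at low dose left the lysosomal genes near control. At 12.5 µM, edgeR's quasi-likelihood test called 0 of 43, with 1 at an unadjusted p under 0.05 and 0 by DESeq2, where 0.045% of the 15554 genes tested were called. At 50 µM it called 0 of 43, with 2 at an unadjusted p under 0.05 and 0 by DESeq2, where 0.463% of all genes were called. The median log2 fold changes of the 43 were -0.044 and 0.0063, beside -0.0063 and -0.011 over all genes. A p that misses the threshold does not show equal levels: for Cd68 the standard error of the log2 fold change was 0.22 at 12.5 µM.

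At 200 µM heme-albumin, 5 lysosomal genes fell and none rose. The 5 were Gusb, Ctsc, Tpp1, Lamp2 and Scarb2, or 11.6% of the 43, where 13.6% of all genes were called and 6.6% were called lower. Gusb, the β-glucuronidase that trims glycosaminoglycans, ran from 109.7 to 242 CPM (median 159) in control and from 99.6 to 168 CPM (median 133) at 200 µM, a log2 fold change of -0.41 (SE 0.13, padj = 0.0296) by edgeR. Ctsc, the dipeptidyl peptidase cathepsin C, ran from 132 to 215 CPM (median 151) in control and from 115 to 150.5 CPM (median 126) at 200 µM, a log2 fold change of -0.33 (SE 0.091, padj = 0.00909). Tpp1, the tripeptidyl peptidase lost in a childhood neuronal ceroid lipofuscinosis, ran from 230.4 to 387 CPM (median 274) in control and from 203 to 281 CPM (median 237) at 200 µM, a log2 fold change of -0.30 (SE 0.091, padj = 0.0194). For all 3 the ranges overlapped, and the highest library belonged to the control group. The membrane proteins changed less, Lamp2 with a log2 fold change of -0.20 (padj = 0.0496) and Scarb2, the receptor that carries glucocerebrosidase to the lysosome, with -0.20 (padj = 0.0486).

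Across the 43 genes, 38 had a negative log2 fold change at 200 µM, with a median of -0.15 beside -0.013 over all genes. The 27 genes other than V-ATPase had a median of -0.22 with 5 called, and the 16 V-ATPase genes had a median of -0.074 with none called and 3 at an unadjusted p under 0.05, a difference between the 2 sets that was not tested. The largest negative estimates among the proteases did not pass. Ctss, the cathepsin of antigen presenting cells, had a log2 fold change of -0.51 (padj = 0.13), and Ctsl had -0.46 (padj = 0.0995). Cd68 ran from 192 to 543 CPM (median 292) in control and from 131 to 339 CPM (median 236) at 200 µM, with a log2 fold change of -0.54 (padj = 0.0886). Ctsd had a log2 fold change of -0.39 (padj = 0.212) and Lamp1 of -0.17 (padj = 0.102), while Tfeb (-0.0056) and Atp6v0d2 (-0.10) lay nearer 0 on that scale.

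At 400 µM heme-albumin, 2 lysosomal genes were higher and 6 lower. These were 18.6% of the 43, a smaller share than the 29% of all genes that were called (14.7% higher and 14.3% lower). Gaa, the acid α-glucosidase that breaks down glycogen, ran from 149.6 to 282 CPM (median 195) in control and from 222 to 304 CPM (median 263) at 400 µM, a log2 fold change of 0.39 (SE 0.082, padj = 0.000159). Its medians at 12.5, 50 and 200 µM were 224, 233 and 234 CPM, all above the control median, and none of those doses passed the test. Atp6v1h ran from 87.5 to 128 CPM (median 114) at 400 µM, a log2 fold change of 0.28 (SE 0.069, padj = 0.00126) against control. Both ranges overlapped control, with most treated libraries in the upper part of the control range or above it.

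Of the 5 genes lowered at 200 µM, 4 were again lower at 400 µM: Gusb ran from 93.5 to 174 CPM (median 131) with a log2 fold change of -0.39 (padj = 0.0195), Tpp1 from 205 to 276 CPM (median 231) with -0.31 (padj = 0.00734), and Ctsc from 113 to 170.4 CPM (median 129) with -0.26 (padj = 0.0239). Lamp2 had a log2 fold change of -0.23 (padj = 0.0114). Scarb2, the fifth, had -0.15 (padj = 0.0982). The further 2 called lower were Ctsf, a cysteine cathepsin, at -0.20 (padj = 0.0415) and the V1 stalk subunit Atp6v1e1 at -0.14 (padj = 0.0448). Both doses were compared with the same 10 controls, so their fold changes are not independent of each other. Tfeb ran from 22.8 to 33.2 CPM (median 28.7) at 400 µM, close to the control range of 17.8 to 38.7 CPM (median 27.4), and Lamp1 had a log2 fold change of -0.18 (padj = 0.0524).

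**Figure D2:**
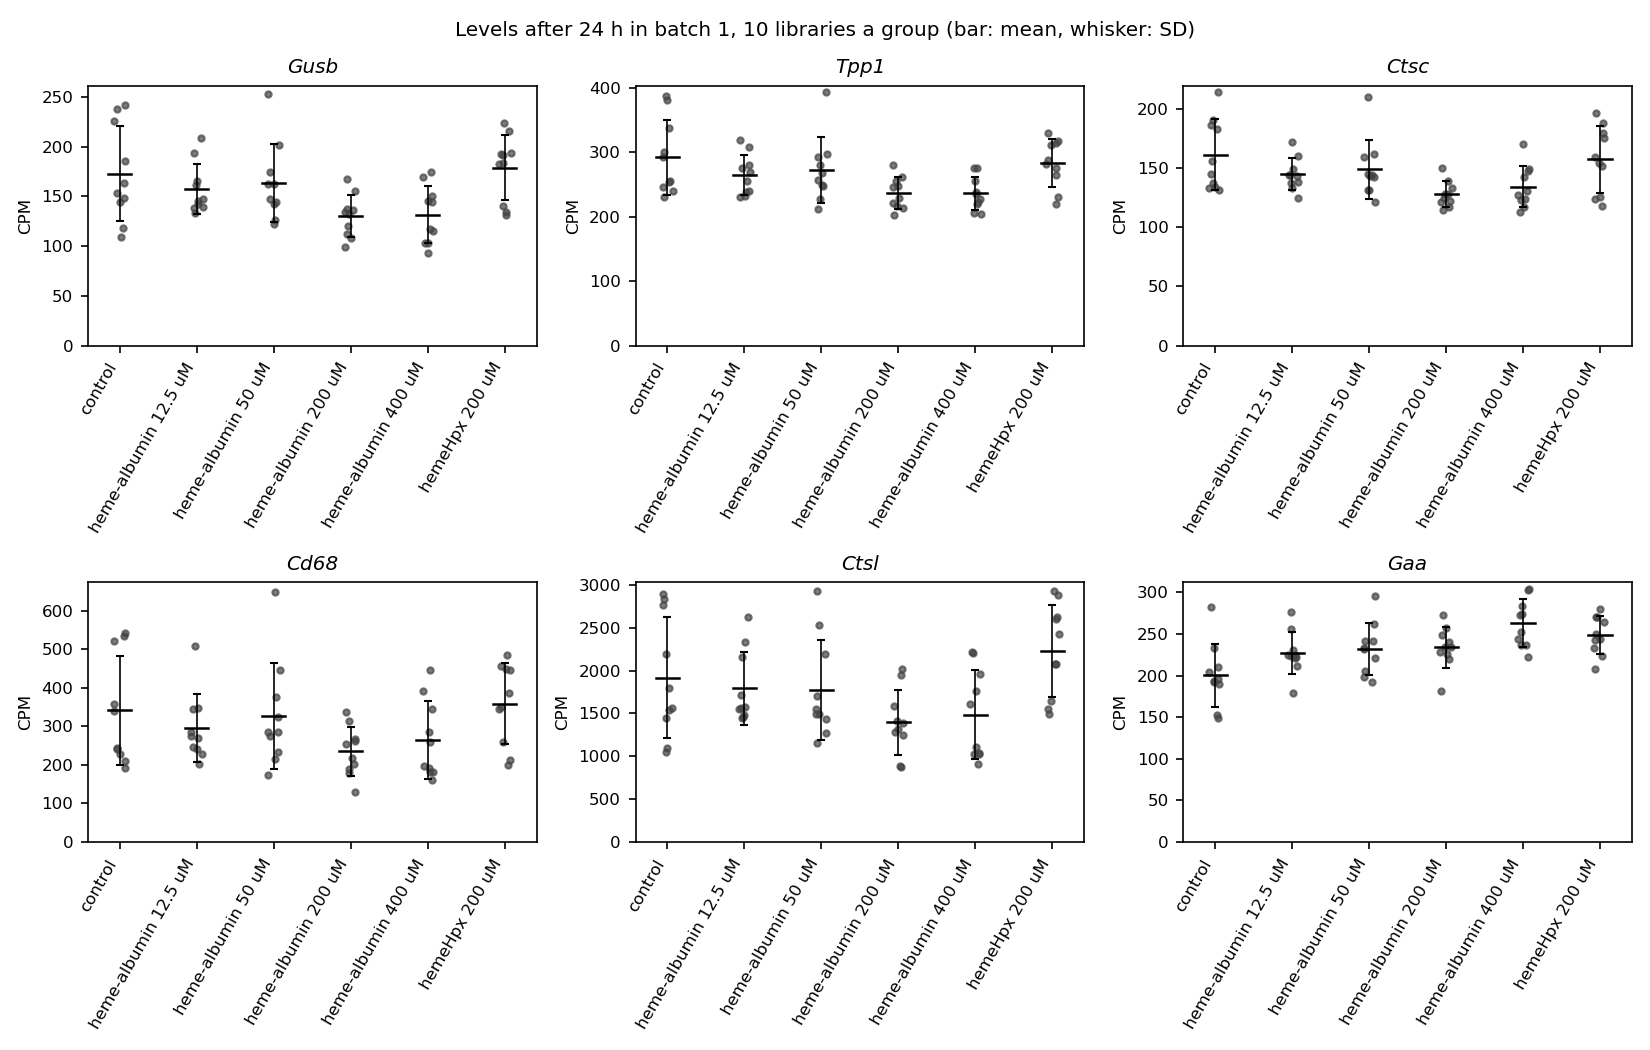
CPM of 6 genes in batch 1, with 1 point a library, 10 libraries in each of the 6 groups, the mean as a bar and the SD as a whisker, on linear axes from 0. Gusb falls from a control median of 159 to 133 and 131 CPM at 200 and 400 µM heme-albumin, Gaa climbs to 263 CPM at 400 µM, and Ctsl and Cd68 stand highest with hemeHpx by their medians.

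Markers of other cells moved at the same doses. At 200 µM heme-albumin, 8 of 10 microglial markers tested were lower with a median log2 fold change of -0.86, and 3 of 7 markers of border-associated macrophages were lower. The summed microglial markers ran from 449 to 2308 CPM (median 961) in control and from 321 to 982 CPM (median 634) at 200 µM. At 400 µM, 4 of the 10 were lower, and the sum ran from 361 to 1336 CPM (median 698). Of 7 astrocyte markers 5 were lower at that dose, with a median log2 fold change of -0.40. Of the neuronal markers none of 9 was called at 200 µM, with none at an unadjusted p under 0.05, and 3 of 7 astrocyte markers were lower at 200 µM. The part of these markers in the fall of the lysosomal genes was not tested.

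The same molar amount of heme on hemopexin left the lysosomal genes at or slightly above control. Against control, 3 of 43 were higher and none lower, 6.98% of the genes where 8.2% of all genes were called and 3.77% were called higher. Tfeb ran from 17.8 to 38.7 CPM (median 27.4) in control and from 32.1 to 42.5 CPM (median 34.6) with hemeHpx, a log2 fold change of 0.33 (SE 0.11, padj = 0.0496) by edgeR. Gaa ran from 208 to 279.7 CPM (median 247) with hemeHpx, a log2 fold change of 0.31 (SE 0.081, padj = 0.03). Mcoln1 ran from 54.3 to 67.5 CPM (median 59.4) in control and from 59.8 to 75.6 CPM (median 66.2) with hemeHpx, a log2 fold change of 0.15 (SE 0.045, padj = 0.0427). The ranges overlapped for all 3. Among the 43, 38 had a positive log2 fold change, with a median of 0.12 beside 0.0048 over all genes. The count depended on the method, with 0 called after a correction of each library for GC content and length and 5 with DESeq2. With the library code as a replicate block it was larger still, as given below. None of 9 neuronal markers was called against control, with 4 at an unadjusted p under 0.05 and a median log2 fold change of 0.51. Of 7 oligodendrocyte markers 1 was higher (median 0.23), as was 1 of 7 markers of border-associated macrophages, and none of 10 microglial markers was called, with 1 at an unadjusted p under 0.05 (median 0.037). The part of these markers was not tested.

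The contrast between the carriers was the largest in batch 1 for these genes. With 200 µM of heme in both groups, 25 of 43 lysosomal genes were higher with hemeHpx than with heme-albumin and none was lower, 58.1% of the genes where 25.9% of all genes were called and 13% were called higher. All 43 log2 fold changes were positive, with a median of 0.28 beside 0.013 over all genes. All 9 proteases were among the 25, with 5 of 7 glycosidases, 2 of 3 lipid-handling proteins, 3 of 7 membrane proteins and Tfeb. The pump took part less often by count, with 5 of 16 called and a median of 0.22, beside 20 of 27 and 0.35 for the others, a difference in counts that was not tested.

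Ctsl, a cysteine protease, ran from 869.7 to 2016 CPM (median 1350.5) with heme-albumin and from 1489 to 2924 CPM (median 2249) with hemeHpx, a log2 fold change of 0.68 (SE 0.19, padj = 0.0085). Ctss ran from 108 to 288 CPM (median 177) with heme-albumin and from 154 to 394 CPM (median 278) with hemeHpx, a log2 fold change of 0.61 (SE 0.23, padj = 0.0416). Cd68 ran from 201 to 485 CPM (median 368) with hemeHpx, a log2 fold change against heme-albumin of 0.61 (SE 0.22, padj = 0.0327). In all 3 the lowest library was of heme-albumin and the highest of hemeHpx, with an overlap between. Ctsd followed at 0.57 (SE 0.21, padj = 0.0372), with 2771 to 7291 CPM (median 5047) for heme-albumin and 4772 to 10341 CPM (median 7818) for hemeHpx. Tfeb had a log2 fold change of 0.34 (padj = 0.0204), Lamp1 of 0.18 (padj = 0.0549) and Atp6v0d2 of 0.30 (padj = 0.173). The pump genes called were Atp6v0b (0.30), Atp6v0d1 (0.23), Atp6v0e (0.26), Atp6v1e1 (0.17) and Atp6ap1 (0.22), given as log2 fold changes. Of these, Atp6v0d1, drawn above with its palindrome, forms part of the V0 stalk that meets V1.

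**Figure D3:**
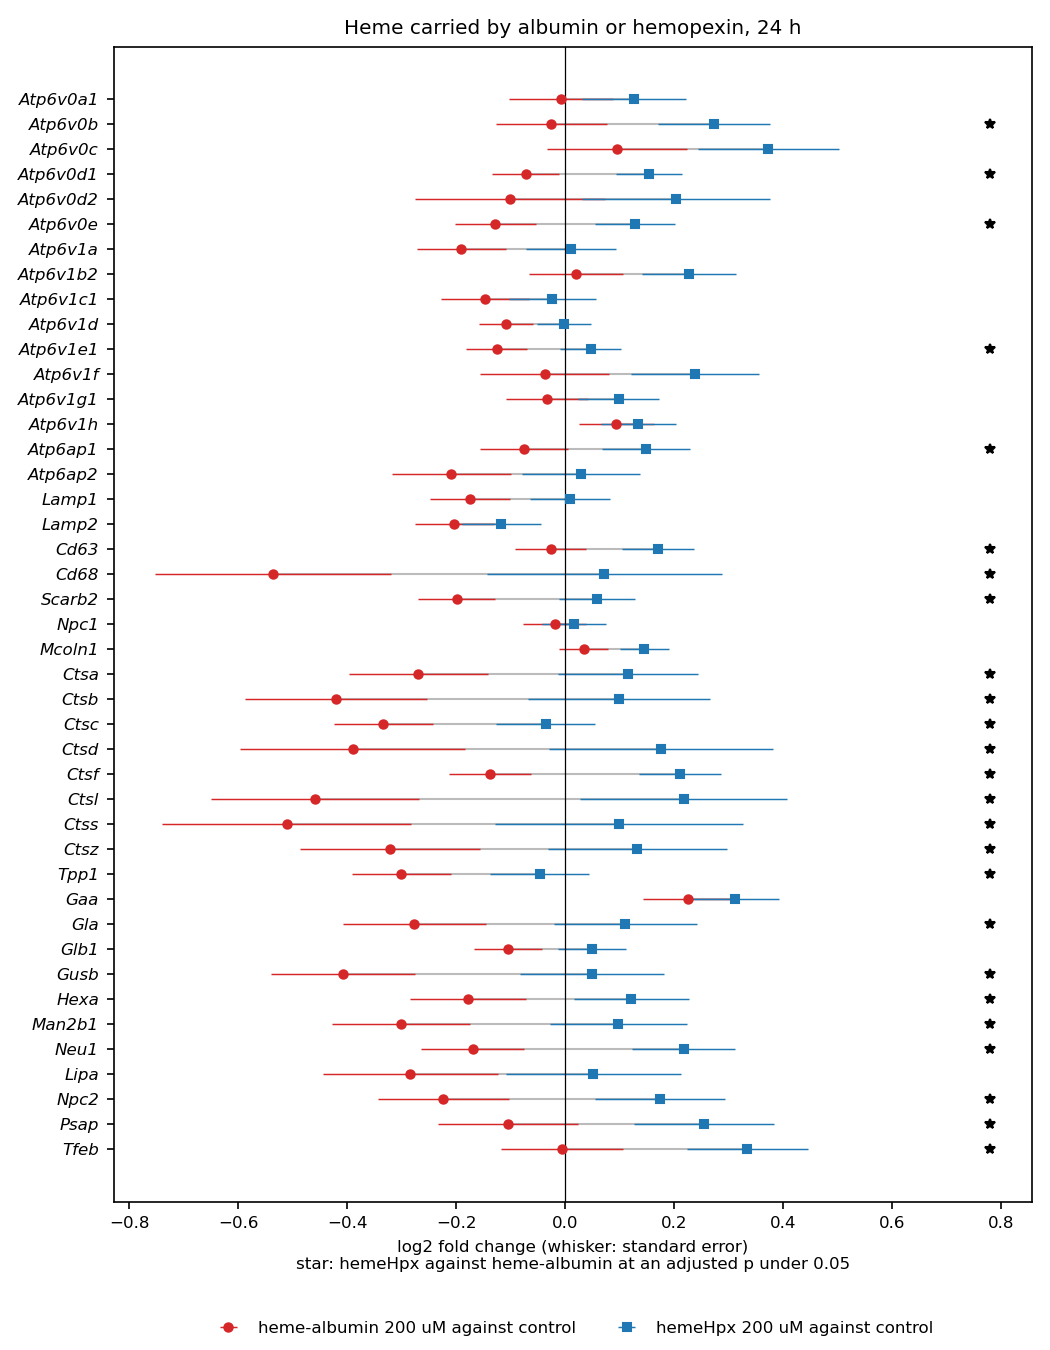
Log2 fold change against control of each of the 43 genes with heme-albumin (red circles) and hemeHpx (blue squares), both at 200 µM and 24 h and both against the same 10 controls, with standard errors as whiskers and a star where the direct comparison of the carriers had an adjusted p under 0.05 (25 genes). The blue square lies to the right of the red circle in every row.

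Between the carriers, too, markers of phagocytes moved. With hemeHpx, 9 of 10 microglial markers were higher than with heme-albumin (median log2 fold change 0.96), as were 4 of 7 markers of border-associated macrophages, 3 of 7 of astrocytes and 2 of 5 of endothelial cells. Of 7 oligodendrocyte markers 2 were higher and 1 was lower. The summed microglial markers ran from 649.5 to 1859 CPM (median 1259.9) with hemeHpx and from 321 to 982 CPM (median 634) with heme-albumin. None of 9 neuronal markers was called, with 5 at an unadjusted p under 0.05. Their part in the difference between carriers was not tested.

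Calls were also counted by the presence of CACGTG in the window. Of the 13 holders, 8 were higher with hemeHpx than with heme-albumin (median log2 fold change 0.26), and of the 23 with a window and no match 16 were higher (median 0.30). All 5 genes lowered by heme-albumin at 200 µM were among the 23. At 400 µM, 1 of the 13 was higher and 1 lower, 5 of the 23 were lower, and 1 of the 7 without a window was higher. With hemeHpx against control, 2 of the 13 and 1 of the 23 were higher. With Hp at 48 h, described below, 1 of the 13, 6 of the 23 and 4 of the 7 without a window were higher. The shares over all genes were 13% higher between the carriers and 6.6% lower with heme-albumin at 200 µM. They were 14.7% higher and 14.3% lower at 400 µM, 3.77% higher with hemeHpx against control and 4.88% higher with Hp at 48 h. No difference between holders and the others was tested. These counts are descriptions, and the absence of the letters says nothing about the factor.

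Further genes of the lysosome and its regulation, 58 tested from a list of 61, moved mostly with the members. At 200 µM heme-albumin 3 were higher and 12 lower, and at 400 µM 3 were higher and 17 lower. Over all genes, 13.6% were called at 200 µM (6.6% lower) and 29% at 400 µM (14.3% lower). Lgmn, the asparaginyl protease legumain, had a log2 fold change of -0.69 (padj = 0.00251) at 200 µM and -0.70 (padj = 0.0007) at 400 µM. Sqstm1, the autophagy receptor p62 and a target of the oxidative stress factor NRF2, went the other way, with log2 fold changes of 0.60 (padj = 1.73e-05) at 50 µM, 0.95 (padj = 1.37e-11) at 200 µM and 1.34 (padj = 1.17e-17) at 400 µM. Tfe3, a relative of Tfeb, was higher at the same doses, by 0.20, 0.30 and 0.40 on the log2 scale. Between the carriers 28 of the 58 were higher with hemeHpx and 2 were lower, Sqstm1 at -0.63 (padj = 1.36e-06) and Tfe3 at -0.17 (padj = 0.00761). Over all genes, 25.9% were called between the carriers and 13% were higher with hemeHpx.

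In batches 2 and 3 the prefix of the library name went with a larger median difference of the lysosomal genes than any treatment did. In the fit, all 43 were higher in E2 than in E1, with a median log2 difference of 0.40 beside 0.018 over all genes, and 68% of all 16473 genes were called between the prefixes. Among the Hp libraries of batch 3 alone, 11 of E1 and 12 of E2, 37 of 43 were higher in E2 with a median of 0.41, where 49.3% of all genes were called. In 48 h controls Ctsd ran from 3657 to 12958 CPM (median 6614) in E1, and its 2 libraries of E2 held 19398 and 19179.5 CPM. Cd68 ran from 115 to 432 CPM (median 244) in E1, with 787 and 746 CPM in E2. Lamp1 ran from 914 to 1298 CPM (median 1042) in E1, with 1491 and 1471 CPM in E2. The E2 libraries lay above the whole E1 range in each of these 3 genes. Their summed microglial markers were also higher, from 3828 to 4359 CPM (median 4093) in E2 and from 556 to 2540.0 CPM (median 1212) in E1. What the prefix stands for was not tested. Every HbHp library was of batch 3 and E2, so HbHp against control rests on the few controls of E2 and on the fitted terms. Those terms were estimated with the Hb, Hp and control libraries of both prefixes. Among the E2 controls, only replicate 11 at 24 h and replicate 9 at 48 h were also of batch 3.

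Free hemoglobin moved no lysosomal gene past the threshold. edgeR called 0 of 43 in each of the 4 comparisons with control and DESeq2 called 0 as well, where 0.0971% of all genes were called for 200 µM at 24 h, 0.522% for 400 µM at 24 h, 0.31% for 200 µM at 48 h and 0.601% for 400 µM at 48 h. The counts at an unadjusted p under 0.05 were 0, 1, 0 and 2, and the median log2 fold changes were 0.046, 0.0073, 0.038 and 0.058. Atp6v0d2 had the largest estimate, with log2 fold changes at 48 h of 0.32 (SE 0.16, padj = 0.999) for 200 µM and 0.46 (SE 0.16, padj = 0.296) for 400 µM. Within E1 it ran from 9.66 to 24.4 CPM (median 12.1) in control, from 12.3 to 26.5 CPM (median 17.99) with Hb at 200 µM and from 15.7 to 33.01 CPM (median 21.2) with Hb at 400 µM, and the 3 ranges overlapped. Ctsd at 48 h had -0.018 (padj = 0.999) and 0.055 (padj = 0.998) for the lower and the higher dose, and Cd68 had 0.08 (padj = 0.999) and 0.24 (padj = 0.945).

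**Figure D4:**
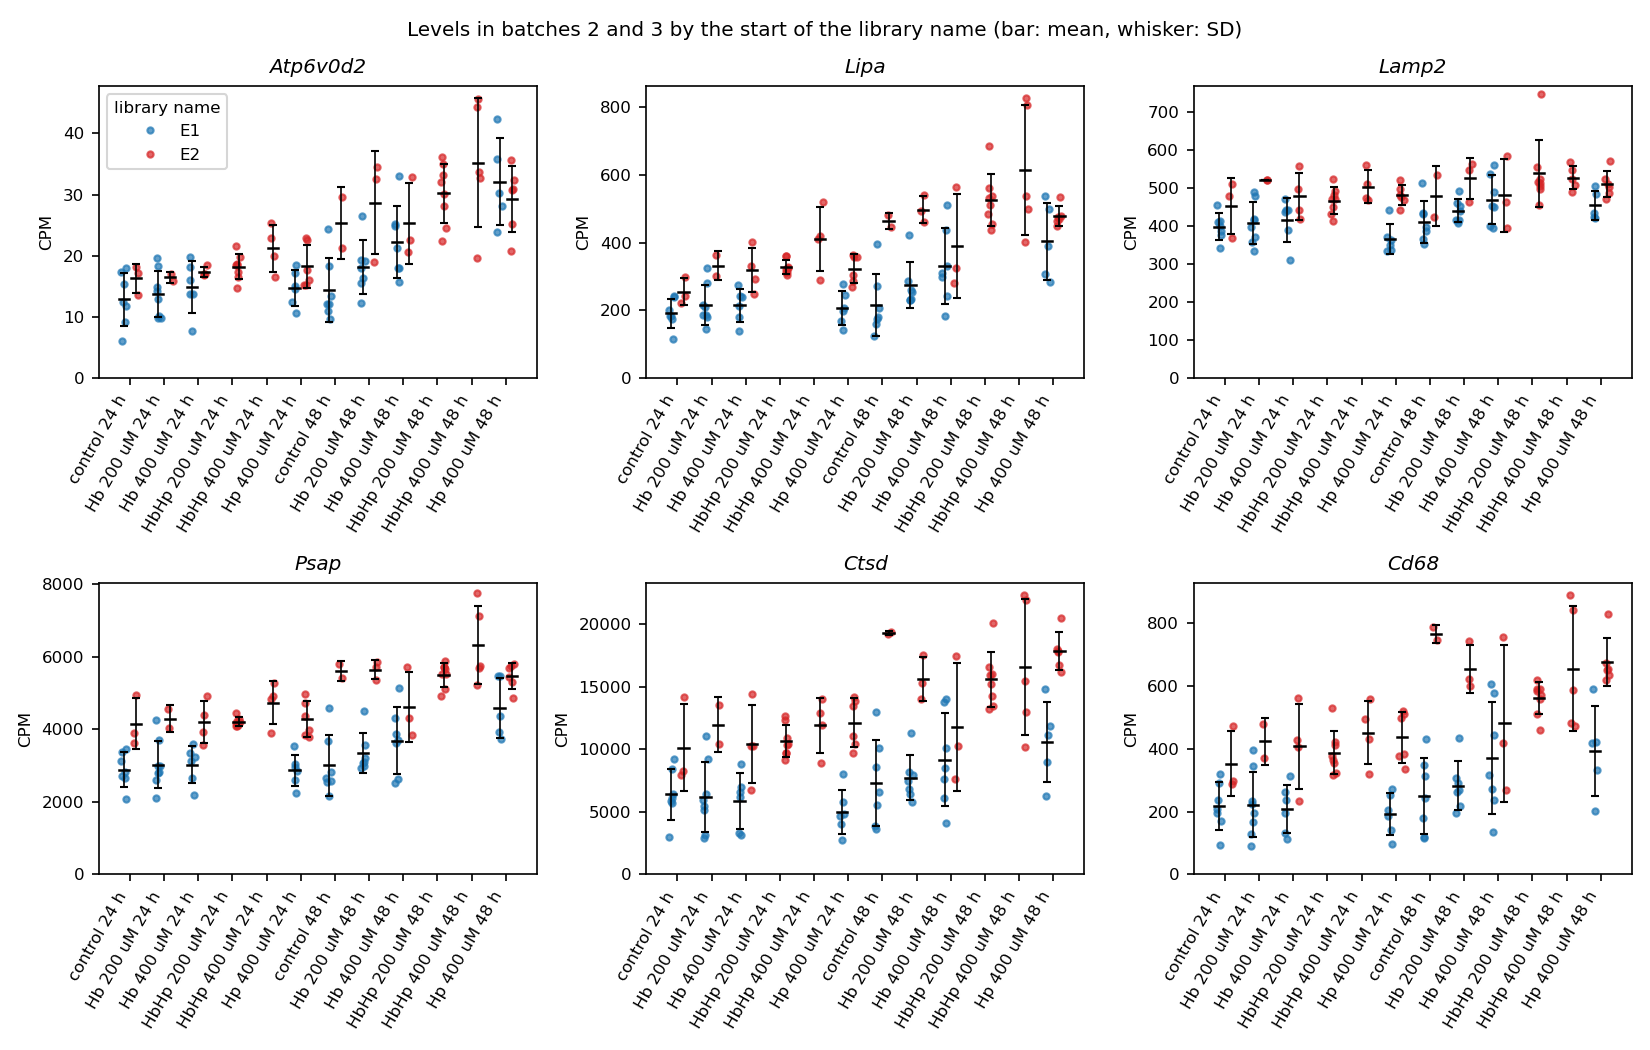
CPM of 6 genes in the 12 groups of batches 2 and 3, with 1 point a library, blue for names beginning with E1 and red for E2, and the mean and SD drawn for each, on linear axes from 0. The red points sit above the blue ones within most groups, and HbHp groups hold red points alone. For Atp6v0d2 and Lipa the blue points of Hp at 48 h (medians 30.3 and 391 CPM) sit above those of the controls (12.1 and 179 CPM).

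At 24 h, haptoglobin with or without hemoglobin left almost all of the lysosomal genes short of the threshold. HbHp at 200 µM called 0 of 43 by edgeR (2 at an unadjusted p under 0.05, 0 by DESeq2), where 1.93% of all genes were called. Hp alone called 0 of 43 (1 at an unadjusted p under 0.05, 0 by DESeq2), where 0.704% were called. HbHp at 400 µM called 1, Lamp2, or 2.33% where 5.15% were called and 3.1% were called higher. Its 4 libraries held 562, 474, 512 and 468 CPM and the 3 controls of E2 479, 511 and 369 CPM, with the 7 controls of E1 from 341 to 456 CPM (median 399). The log2 fold change was 0.32 (SE 0.095, padj = 0.0306). The batch 3 term of the fit, which every HbHp library carries, was -0.25 for Lamp2 (padj = 2.59e-05). The call was lost among libraries of E2 alone, without HbHp replicate 1 or 3 and without control replicate 11, while 3 genes were called without HbHp replicate 4. Lipa, the acid lipase, had the largest estimate at 400 µM HbHp, 0.61 (padj = 0.1). Its 4 libraries held 520.5, 410.4, 421 and 289 CPM, beside 223, 241 and 299 CPM in the controls of E2. With HbHp at 200 µM the ranges of Atp6v1d and Lipa lay above every 24 h control, of which 7 were of E1. With HbHp at 400 µM those of Atp6v1d and Atp6v1h did. None of these was called. All 43 genes were higher in E2 than in E1 in the fit, and the share of all genes with such separate ranges is not given.

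At 48 h, HbHp at 200 µM gave 8 lysosomal genes higher and none lower, HbHp at 400 µM 7 and none, and Hp at 400 µM 11 and none. These were 18.6%, 16.3% and 25.6% of the 43, where 11.9%, 11.9% and 10.8% of all genes were called and 7.04%, 7.39% and 4.88% were called higher. The 3 treatments shared the same 9 controls. The calls lay mostly in the pump, with 5 of 16 V-ATPase genes for HbHp at 200 µM, 4 for HbHp at 400 µM and 7 for Hp. The catalytic V1 sector gave 4, 3 and 5 of 8. The median log2 fold changes of the 16 were 0.19, 0.22 and 0.20. A call depends on the standard error as well as on the fold change. For Hp, the log2 fold changes of the 8 V1 genes ran from 0.081 (Atp6v1f, SE 0.080) to 0.28 (Atp6v1b2, SE 0.087). Those of the 9 proteases ran from 0.048 (Ctsf, SE 0.060) to 0.57 (Ctss, SE 0.24). None of the 9 proteases and none of the 7 glycosidases was called in these comparisons, in contrast to the heme-albumin series, though the contrast between the series was not tested; at an unadjusted p under 0.05 they gave 0, 0 and 3 proteases and 0, 0 and 1 glycosidases.

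Atp6v0d2 and Lipa led all 3 comparisons. For Atp6v0d2 the 48 h controls ran from 9.66 to 24.4 CPM (median 12.1) in E1 and held 29.5 and 21.2 CPM in E2. HbHp at 200 µM ran from 22.4 to 36.1 CPM (median 31.1), and the 5 libraries at 400 µM held 32.8, 19.6, 45.7, 44.4 and 33.7 CPM. Hp ran from 23.9 to 42.3 CPM (median 30.3) in E1 and from 20.8 to 35.6 CPM (median 30.8) in E2. Within E2 every treated range overlapped the 2 controls, while within E1 the Hp range met that of the controls only at its lower end. The log2 fold changes were 0.62 (SE 0.20, padj = 0.0288) for HbHp at 200 µM, 0.85 (SE 0.22, padj = 0.00465) at 400 µM and 0.80 (SE 0.19, padj = 0.00295) for Hp.

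Lipa, which frees cholesterol and fatty acids from swallowed lipoproteins, ran from 124 to 395 CPM (median 179) in the E1 controls and held 482 and 448 CPM in those of E2. HbHp at 200 µM ran from 437 to 686 CPM (median 523), the 5 libraries at 400 µM held 501, 401, 807, 828 and 539 CPM, and Hp ran from 285 to 539 CPM (median 391) in E1 and from 449 to 535 CPM (median 474) in E2. The HbHp ranges reached both above and below the E2 controls. The log2 fold changes were 0.61 (SE 0.19, padj = 0.0272), 0.83 (SE 0.21, padj = 0.00398) and 0.63 (SE 0.18, padj = 0.0138) in that order. The third for HbHp at 200 µM was Atp6v1h, with 121 to 207 CPM (median 138), 163, 139, 152, 151 and 147 CPM at 400 µM and 122 and 122 CPM in the E2 controls. Its log2 fold changes were 0.38 (padj = 0.000382) and 0.44 (padj = 0.000143), and all 5 libraries at 400 µM lay above all 9 controls. So did those of Scarb2, which was not called at that dose (padj = 0.0641). Of the 9 controls 7 were of E1, and the share of all genes with such separate ranges is not given.

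Among the genes past the threshold, Psap had the third largest log2 fold change for HbHp at 400 µM and for Hp. Its 5 libraries of HbHp at 400 µM held 5749.9, 5216, 7755, 7128 and 5695 CPM, the E2 controls 5407 and 5792 CPM and the E1 controls from 2169.6 to 4571 CPM (median 2659.8). The log2 fold change was 0.45 (SE 0.15, padj = 0.0349) for HbHp at 400 µM and 0.37 (SE 0.12, padj = 0.0386) for Hp. Lamp2 was called in all 3 comparisons, with log2 fold changes of 0.34, 0.31 and 0.30, as were Atp6v1a, the ATP-splitting subunit of V1, with 0.29, 0.30 and 0.27, and Atp6v1b2, its partner in the ring, with 0.30, 0.36 and 0.28. Atp6v1e1 was called for HbHp at 200 µM alone (0.27), Scarb2 for HbHp at 200 µM (0.18) and Hp (0.21), and Atp6ap2, Atp6v1g1 and Atp6v1d for Hp, at 0.29, 0.25 and 0.18 on the log2 scale. Tfeb was at -0.13 (padj = 0.261), -0.13 (padj = 0.356) and -0.063 (padj = 0.597), Lamp1 at 0.094 (padj = 0.379), 0.076 (padj = 0.559) and 0.16 (padj = 0.0705), Ctsd at 0.06 (padj = 0.914), 0.15 (padj = 0.794) and 0.33 (padj = 0.369), and Cd68 at 0.024 (padj = 0.971), 0.25 (padj = 0.67) and 0.38 (padj = 0.333), all as log2 fold changes in the same order.

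These counts depended on how the prefix was handled. With the batch term alone, 21, 20 and 6 of the 43 were called for HbHp at 200 µM, HbHp at 400 µM and Hp. Among libraries of E2 alone, where 2 controls remained at 48 h, none was called for any of them, with median log2 fold changes of -0.059, -0.055 and -0.054. For Hp, the treatment with libraries of both prefixes, E1 alone gave 14 called with a median of 0.32. The fit with the batch term alone does not adjust for the prefix, and 68% of all genes were called between the prefixes. Shares of all genes called under these alternative fits are not given here. The difference between the prefixes in the response to Hp at 48 h was tested as an interaction. It called 2 of 43, Atp6v0a1 (-0.74, SE 0.18, padj = 0.0442) and Gaa (-0.66, SE 0.13, padj = 0.0228), where 2.11% of all genes were called, and the median of E2 minus E1 was -0.28. At 24 h the same edgeR test called none, with 12 at an unadjusted p under 0.05, where 0.697% of all genes were called. For HbHp at 200 µM, 4 were called when the Hp libraries were left out of the fit and 1 after a correction of each library for GC content and length. For HbHp at 400 µM, 4 genes were called without replicate 3 and 3 without replicate 4, the highest libraries for Lipa and Psap.

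**Figure D5:**
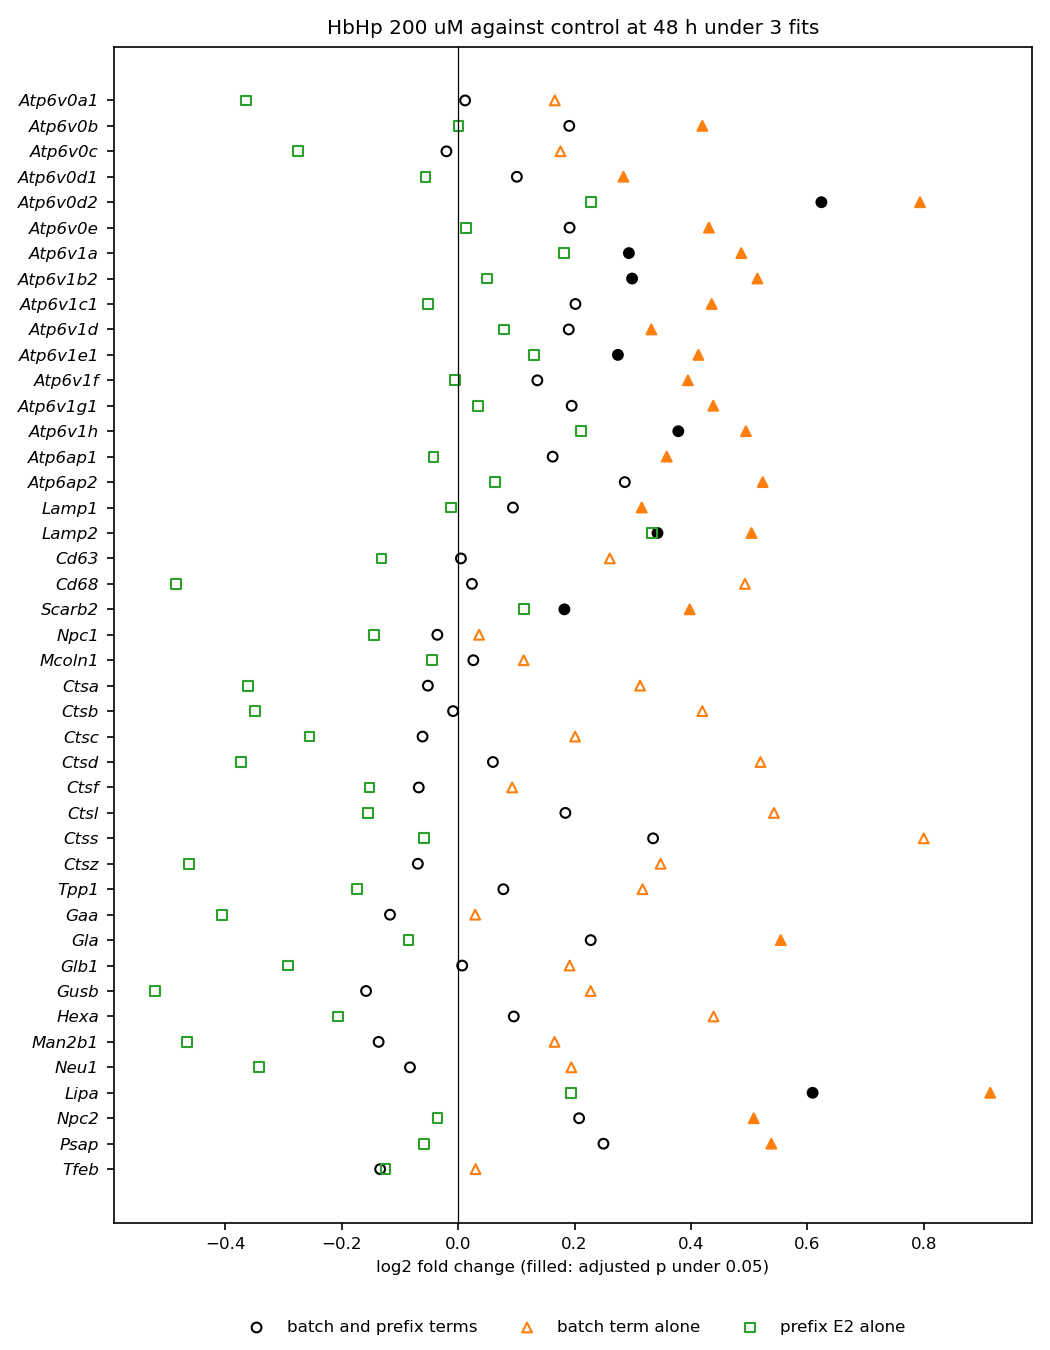
Log2 fold change of each of the 43 genes for HbHp at 200 µM against control at 48 h under 3 fits: batch and prefix terms (black circles), batch term alone (orange triangles) and libraries of E2 alone, with a filled symbol where the adjusted p was under 0.05. The orange triangles lie to the right of the black circles in most rows and are filled in 21 rows, the circles in 8 and the symbols of E2 alone in 0. With both terms 11.9% of all genes were called, and the shares under the other fits are not given.

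Beside these results, few microglial markers were called. None of 10 was called for HbHp at 200 µM or Hp at 48 h, with 1 at an unadjusted p under 0.05 in each, and 1 of 10 was lower for HbHp at 400 µM, with median log2 fold changes of -0.40, 0.04 and -0.39. In each of the 3 comparisons 1 of 7 markers of border-associated macrophages was higher, and 1, 1 and 2 of 7 astrocyte markers were lower for HbHp at 200 µM, Hp and HbHp at 400 µM.

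Direct comparisons asked what hemoglobin and haptoglobin each add. HbHp against free Hb at 200 µM gave 0 of 43 at 24 h (1 at an unadjusted p under 0.05, 0 by DESeq2), where 0.607% of all genes were called. At 48 h it gave 1, Atp6v1h, 2.33% where 4.98% were called and 3.14% were called higher. With free Hb at 48 h Atp6v1h ran from 85.8 to 108 CPM (median 102) in E1 and from 118 to 127 CPM (median 126) in E2, beside 121 to 207 CPM (median 138) with HbHp, a log2 fold change of 0.26 (SE 0.077, padj = 0.0323). That call was lost among E2 libraries alone and without the Hp libraries. HbHp against Hp at 400 µM gave 0 of 43 at 24 h (0 at an unadjusted p under 0.05, 0 by DESeq2), where 0.619% of all genes were called, and 0 at 48 h (1 and 0), where 1.44% were called. The median log2 difference was 0.075 at 24 h and -0.012 at 48 h. For Atp6v0d2 at 48 h the difference was 0.051 (SE 0.20, padj = 0.926), and for Lipa 0.20 (SE 0.19, padj = 0.642). The change in the HbHp response at 200 µM from 24 h to 48 h, tested as an interaction, called 0 of 43 by edgeR (4 at an unadjusted p under 0.05, 0 by DESeq2), where 0.0121% of all genes were called, and 36 of the 43 estimates were larger at 48 h, with a median log2 difference of 0.13. Among libraries of E2 alone, the prefix of all HbHp libraries, that median was -0.087.

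Among the 58 further lysosomal genes, Sqstm1 was again the one that moved most, with log2 fold changes against control of 0.74 (padj = 2.83e-05) for HbHp at 400 µM and 24 h, 0.90 (padj = 4.19e-09) for HbHp at 200 µM and 48 h, 1.03 (padj = 3.70e-10) at 400 µM and 48 h, and 0.58 (padj = 8.69e-05) for Hp at 48 h. It was also higher with HbHp than with Hb at 200 µM and 48 h, 0.60 (padj = 0.000477), and with HbHp than with Hp at 400 µM and 48 h, 0.45 (padj = 0.0128). At 48 h, 4 of the 58 were higher and 2 lower for HbHp at 200 µM, 6 higher and 1 lower for HbHp at 400 µM, and 8 higher and none lower for Hp. Over all genes, 11.9%, 11.9% and 10.8% were called in these comparisons, in either direction. Arsa, arylsulfatase A, had log2 fold changes of -0.26 (padj = 0.00402) and -0.27 (padj = 0.00776) for HbHp at 200 and 400 µM. With Hp, Mitf, another relative of Tfeb, had 0.31 (padj = 0.0375) and Fnip2, a folliculin partner, 0.43 (padj = 0.0326).

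Reads of some members may be shared with genes that overlap their exons. In GENCODE M21, Ctsd, Glb1 and Ctsl each share exon bases with another gene on the same strand (Gm49369, Tmppe and Gm49230), and Lamp1, Ctsb, Ctsa, Ctsz, Hexa, Npc1, Atp6v0b, Atp6v1h and Atp6v1e1 overlap exons of genes on the other strand. Their counts are uncertain to that extent, and the share of reads involved was not measured.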

How the data were processed

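Total RNA of mouse brain slice cultures was sequenced as poly(A) mRNA libraries (SPLIT extraction, TruSeq). The deposited files hold raw read counts per Ensembl gene identifier; per the labels' processing notes the authors used featureCounts and build GRCm39, and the aligner is not given in the sources used here. No values were normalized before deposit. Counts of 60 libraries of batch 1 and of 107 libraries of batches 2 and 3 were fitted separately with edgeR 4.0.16 in R 4.3.3: trimmed mean of M values scaling, a low-count filter (filterByExpr, smallest count 10, smallest total 15), a quasi-likelihood F test and Benjamini-Hochberg adjustment over all genes tested, with a threshold of 0.05. Batch 1 had no covariate; batches 2 and 3 had terms for batch and library name prefix. Standard errors are the absolute log2 fold change over the square root of F. Alternatives were DESeq2 1.42.0, other size factors, no filter, a library code block, the batch term alone and E2 alone; a sex term, E1 alone, GC and length correction, and leaving out Hp libraries or single E2 controls were added after seeing the data.

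The labels do not tie libraries to animals, so p-values measure only the spread between these libraries. No pair among 934 pairs of libraries of 1 group agreed within sampling noise (smallest chi-square per degree of freedom 3.48). Members and lists were chosen with earlier results of these data known. Values were given for Tfeb, Lamp1, Ctsd, Cd68 and Atp6v0d2 and, in each comparison, for up to 3 members raised and 3 lowered most among those past the threshold; up to 3 each way may be named from the further lysosomal genes. Gene lengths came from GENCODE M21 (GRCm38), a different build from that of the counts, so no gene coordinates are given beyond the RefSeq promoter stretches. The scripts were tested on simulated counts.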

Additional observations from a re-analysis of the deposited data

Results flagged for a closer look

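In 112 tests of groups of 4 to 10 libraries, over the 5 genes followed throughout and the mean log2 CPM of the V-ATPase genes and of the other members, 7 values, from 5 libraries, stood far from the rest of their group, where chance alone gives about 1 in 20, or 5.6. Cd68 in replicate 8 of heme-albumin at 12.5 µM was 508 CPM, with the next library at 349 CPM. In replicate 9 of heme-albumin at 200 µM, Lamp1 was 1214.5 CPM (next 1073 CPM) and Atp6v0d2 13.9 CPM (next 9.82 CPM). Tfeb in replicate 9 of hemeHpx was 42.5 CPM, with the next at 36.2 CPM. Atp6v0d2 in replicate 9 of Hb at 400 µM and 24 h was the lowest at 7.67 CPM, with the next at 13.7 CPM. In replicate 1 of HbHp at 200 µM and 48 h, the mean log2 CPM of the V-ATPase genes was 7.67 (next 7.35) and Lamp1 was 1695.5 CPM (next 1505.0 CPM).

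The log2 fold change of Hp at 400 µM against control at 48 h differed between the prefixes, tested as an interaction with edgeR, for 2 members. E2 minus E1 was -0.74 for Atp6v0a1, the V0 subunit that anchors the rotor housing, and -0.66 for Gaa, with 2 controls in E2.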

How the results depend on the processing

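Counts of changed members for heme-albumin at all 4 doses, for hemeHpx against heme-albumin, and for Hb stayed within 1.5 times the reported count under every alternative. HemeHpx against control (3 reported) gave 5 with DESeq2, 1 with no filter, 5 with a sex term and 0 after GC and length correction. With the batch term alone, HbHp against control gave 2 and 3 at 24 h and 21 and 20 at 48 h (200 and 400 µM), Hp at 48 h gave 6, and HbHp against Hb gave 1 at 24 h and 10 at 48 h. With E2 alone, HbHp at 400 µM and 24 h, all 3 treatments at 48 h and HbHp against Hb at 48 h gave 0, HbHp against Hp at 48 h gave 1, and Atp6v1b2 (-0.046) and Psap (-0.061) turned negative for Hp at 48 h. HbHp against Hb at 48 h (1 reported) gave 2 with DESeq2, 2 with a sex term, and 0 without Hp libraries or after GC and length correction. HbHp at 200 µM and 48 h (8 reported) gave 4 without Hp libraries and 1 after GC and length correction, and HbHp at 400 µM and 24 h gave 0 after that correction. Leaving out 1 library gave 0 to 3 for HbHp at 400 µM and 24 h, 3 to 8 at 48 h, and 0 to 0 for HbHp against Hp. The shares of all genes called under these alternatives are not given, and the causes were not tested.

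Library codes recur across groups. Some also recur within a group, as in the batch 1 controls and in Hp at 24 h, and such libraries were counted separately. In deviations from the group means, 94 of 169 same-code pairs across groups in batch 1 and 124 of 291 in batches 2 and 3 correlated above 0.1. The median correlation in batch 1 was 0.192 for same-code pairs and -0.0101 for pairs of other codes (0.0537 within a sex). In batches 2 and 3 it was 0.0611 and -0.00498 (0.059 within a sex). The codes were not taken as pairs, so variation that same-code libraries share stayed in the spread. With the code as a replicate block, hemeHpx against control gave 11, HbHp at 400 µM and 48 h 11 and HbHp against Hb at 48 h 6, and no other count left 1.5 times its reported value.

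The 3 and 2 controls of E2 limit every comparison of HbHp with control, and low members such as Atp6v0d2 carry larger errors than the pump's other subunits. HbHp against Hp held no control, with 6 Hp libraries of E2 at each time. In HbHp against Hb, the E2 libraries of Hb at 200 µM were replicates 7 and 8 at 24 h and 7, 8 and 10 at 48 h.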

Other observations

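The 20 libraries whose tags and titles disagree on the carrier of hemoglobin, with 10 at 24 h and 10 at 48 h and a labelled dose of 400 µM, were kept apart and give values only. Their library names disagree as well, since 14, all of E1, name the carrier Hpx without hemoglobin and 6, all of E2, name it with hemoglobin. At 24 h, Ctsd ran from 3963 to 9580 CPM (median 4931) in the 7 of E1 and from 11754 to 14833 CPM (median 12415) in the 3 of E2. Cd68 ran from 161 to 398 CPM (median 186) in E1 and from 481 to 616 CPM (median 494) in E2, and Atp6v0d2 from 9.74 to 21.03 CPM (median 15.7) and from 19.9 to 23.1 CPM (median 22.6). At 48 h, Ctsd ran from 5030 to 15658 CPM (median 10626) in the 7 of E1 and from 14785 to 19694 CPM (median 19458) in the 3 of E2. Cd68 ran from 188 to 715 CPM (median 488) in E1 and from 669 to 860 CPM (median 854) in E2, and Atp6v0d2 from 19.5 to 44.03 CPM (median 30.6) and from 35.1 to 50.003 CPM (median 41.1). The medians of Lamp1 were 988 and 1372 CPM at 24 h and 1058 and 1360.5 CPM at 48 h, for E1 and E2, and those of Tfeb were 37.9 and 40.5 CPM and then 35.01 and 35.9 CPM.

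For 1 library of E2 the tag gives no treatment, while the title and the library name call it a control, at 24 h in the title and at 48 h in the library name, and its time could not be settled. In it Ctsd stood at 14558 CPM, Cd68 at 553 CPM, Lamp1 at 1533 CPM, Tfeb at 47.4 CPM and Atp6v0d2 at 22.8 CPM.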
